A study of Mus musculus with 30 samples.

Results

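Potassium channels set the resting potential of neurons, end the action potential and limit repetitive firing, and loss of several of them causes seizures in mice or humans. HCN channels carry an inward current at negative potentials that shapes dendritic integration in hippocampal pyramidal cells. Channels differ by subfamily: voltage-gated subunits (Kcna to Kcnd, Kcnq, Kcnh) open on depolarisation, inward rectifiers (Kcnj) and two-pore channels (Kcnk) act near rest, and calcium- or sodium-activated channels (Kcnm, Kcnn, Kcnt) follow activity. Beta subunits and KChIPs (Kcnab, Kcnip, Kcne, Kcnmb) modify the pores. The members described here were all probes whose gene symbol in the array annotation began with Kcn, or was Hcn followed by a digit. The rule gave 123 probes of 82 genes, among 25697 probes of 16593 genes in all.

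Hippocampi came from outbred NMRI males aged 12 weeks. Every mouse had been tested with phenytoin, a sodium channel blocker used against seizures, in a 6 Hz electrical stimulation protocol. The study named 15 of the mice resistant, meaning that they did not respond to the drug, and 15 responders. Each mouse gave 1 Illumina bead array, hybridised with biotin-labelled cRNA from snap-frozen hippocampi. All animals had been phenotyped before tissue was taken, and the groups were defined by the outcome of that test. Effects of the seizures in the test therefore cannot be told apart from effects of resistance.

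The arrays were alike in quality, with 12330 to 13223 probes detected on each and Pearson's r between arrays from 0.980 to 0.994. Of the marker genes listed for hippocampal cell types, 13 of 14 for pyramidal cells of CA1 to CA3 and 4 of 9 for dentate granule cells were detected. Values below are log2 signals after background correction and quantile normalisation. They are compared between mice for one probe and never between probes, since each probe has its own response. A probe counted as detected when its detection p was below 0.05 on at least 15 of the 30 arrays.

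By that rule 56 of the 123 member probes (45.5%) were detected, against 49.0% of all probes on the array. They covered 47 of the 82 genes (57.3%), and 45 probes were detected on all 30 arrays. A further 37 probes were detected on 0 arrays. Around the threshold, Kcnt1 was detected on 16 arrays, Kcna6 on 17, Kcne2 on 22 and Kcnj6 and Kcnq5 on 23 each. Just under it lay a second probe each of Hcn3 and Kcnk6 with 14 arrays, Kcna3 and a second probe of Kcnk4 with 13, and Kcnj2 and Kcnk10 with 12. The second Hcn3 probe was detected on 10 resistant and 4 responder arrays. Kcnt1 was detected on 9 resistant and 7 responder arrays, and Kcne2 on 11 of each.

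Among the pore-forming voltage-gated subunits of Kcna to Kcnd, 6 of 13 genes were detected: Kcna1, Kcna2, Kcna6, Kcnc1, Kcnc4 and Kcnd2. Kcna3, Kcna4, Kcna5, Kcna7, Kcna10, Kcnd1 and Kcnd3 were not. Of the electrically silent subunits, which modify other voltage-gated channels, Kcnf1, Kcng4, Kcns1, Kcns2 and Kcnv1 were detected and Kcng1, Kcng3, Kcns3 and Kcnv2 were not. Kcnq3 and Kcnq5, subunits of the M current, were detected and Kcnq1, best known from heart and ear, was not. Kcnh1, Kcnh2 and Kcnh3 were detected and Kcnh4 to Kcnh7 were not. All 3 Kcnab genes and all 4 Kcnip genes had a detected probe. Of the Kcne genes, Kcne1l and Kcne2 were detected and Kcne1, Kcne3 and Kcne4 were not.

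The inward rectifiers Kcnj3, Kcnj4, Kcnj6, Kcnj8, Kcnj9, Kcnj12 and Kcnj16 were detected, and Kcnj1, Kcnj2, Kcnj5, Kcnj14 and Kcnj15 were not. Two-pore channels were detected for Kcnk1, Kcnk2, Kcnk3, Kcnk4, Kcnk6, Kcnk12 and Kcnk13, and not for Kcnk5, Kcnk7, Kcnk9, Kcnk10, Kcnk15 and Kcnk18. The BK pore gene Kcnma1 and its neuronal beta subunit Kcnmb4 were detected, unlike Kcnmb1 and Kcnmb2. Kcnn1 and Kcnn2 were detected and Kcnn3 and Kcnn4 were not. Kcnt1, Kcnu1, Hcn2 and Hcn3 were detected, and Kcnrg was not. An undetected probe does not show that the gene is silent, because the probe may bind poorly.

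Resistant and responder mice were compared to ask whether hippocampal channel expression differs with the response to phenytoin. No member passed the 5% threshold: 0 of 56 probes had a limma adjusted p below 0.05, where the background over all 12588 detected probes was 1 probe or 0.00794%. The smallest adjusted p of a member was 0.373. At an unadjusted p below 0.05 there were 5 of 56 members (8.93%), against 7.55% of all detected probes. Of these, 4 were higher in resistant mice (7.14%, background 4.25%) and 1 was lower (1.79%, background 3.3%). The shares lie close to the background and the counts are small. The median log2 difference, resistant minus responder, was 0.03 over members and 0.01 over all detected probes, and 33 members lay above 0 and 23 below (58.9% above 0, against 53.8% of all detected probes). With the choroid plexus marker mean as a covariate, 28 of 56 members lay above 0.

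**Figure D1:**
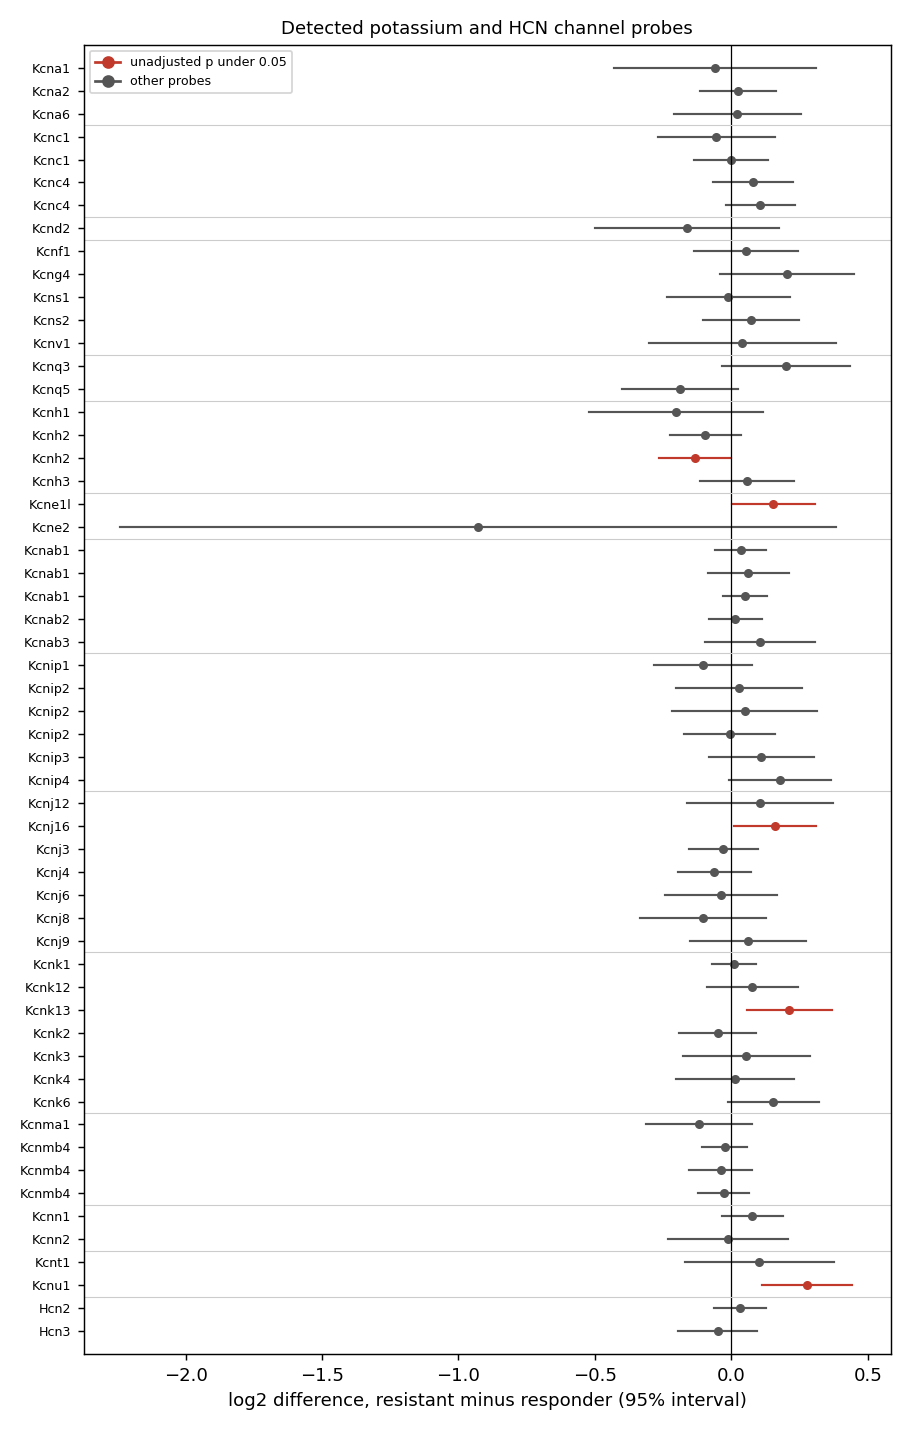
Log2 difference, resistant minus responder mice (15 each), for each of the 56 detected probes, with its 95% interval from limma. Lines separate the subfamilies, from Kcna at the top to Hcn at the bottom, and red marks the 5 probes with an unadjusted p below 0.05. Only Kcne2, with the widest interval, lies beyond 0.3 in size.

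The precision was such that the median standard error of a member was 0.09 and its 95% interval reached a median of 0.17 to either side. Only 1 member, Kcne2, differed by more than 0.3 in size, and its interval was the widest. The p-values measure the spread between single mice. In whole hippocampus, fewer cells of a type and less RNA per cell cannot be told apart.

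The smallest p belonged to Kcnu1, which encodes Slo3, a pH-sensitive channel best known from sperm. Its signal ran from 5.90 through a median of 6.18 to 6.45 in resistant mice and from 5.53 through 5.91 to 6.31 in responders. The ranges overlapped, but 14 of 15 resistant mice lay above the responder median. The difference was 0.28 (SE 0.08, 95% interval 0.11 to 0.44, limma p = 0.00172, adjusted p = 0.373). It was 0.29 within sample numbers 1 to 16 and 0.27 within numbers 17 to 30. Without background correction, and in the authors' values, it shrank to 0.10 (p = 0.00198). The match of this probe to its transcript was not checked here.

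Kcnk13 encodes THIK-1, a two-pore channel known in mice for the resting potential of microglia. It read 7.57, 7.84 and 8.37 (lowest, median, highest) in resistant mice and 7.32, 7.60 and 8.01 in responders. Again 14 of 15 resistant mice lay above the responder median, with wide overlap. The difference was 0.21 (SE 0.08, 95% interval 0.06 to 0.37, limma p = 0.00893, adjusted p = 0.522), and 0.14 in the values without background correction. It was 0.19 within sample numbers 1 to 16 and 0.25 within numbers 17 to 30. Beside it, the mean of 12 oligodendrocyte markers was 10.42 ± 0.23 (SD, n = 15) in the resistant group and 10.30 ± 0.29 (SD, n = 15) in the other, with 10 of the 12 markers higher (permutation p of the mean = 0.24). With that mean as a covariate, an alternative chosen after the data had been seen, the Kcnk13 difference was 0.14 (p = 0.0193, limma adjusted p = 0.571).

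Kcnj16 encodes Kir5.1, which forms heteromers with Kir4.1 in astrocytes. It read 6.78, 7.34 and 7.52 in resistant and 6.77, 7.14 and 7.37 in responder mice. The lowest values were alike, and 10 of the 15 resistant values lay above the median of responders. The difference was 0.16 (SE 0.07, limma p = 0.0379, adjusted p = 0.65), but it was 0.06 within sample numbers 1 to 16 and 0.27 within numbers 17 to 30. In the authors' values it was 0.09.

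Kcne1l, listed in RefSeq as Kcne5, is a single-span subunit that modifies voltage-gated channels. Its signal ran over 7.31, 7.58 and 7.92 in resistant mice and 7.08, 7.43 and 7.87 in responders, with 13 of 15 resistant mice above the responder median. The difference was 0.15 (SE 0.07, limma p = 0.0476, adjusted p = 0.657). Within sample numbers 1 to 16 it was 0.21, within 17 to 30 it was 0.09, and in the authors' values it was 0.09 (p = 0.0509). Kcnh2, the ERG1 channel that carries a repolarising current, was the 1 member on the lower side. The probe read 7.07, 7.23 and 7.77 in resistant and 7.21, 7.46 and 7.77 in responder mice. Only 3 of the 15 resistant values lay above the responder median. The difference was -0.13 (SE 0.06, limma p = 0.0487, adjusted p = 0.657), and -0.08 in the authors' values (p = 0.0546). A second Kcnh2 probe lay at -0.10 (p = 0.143). Across mice the r between its probes was -0.00 (rho = 0.05, permutation p = 0.983 for r).

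**Figure D2:**
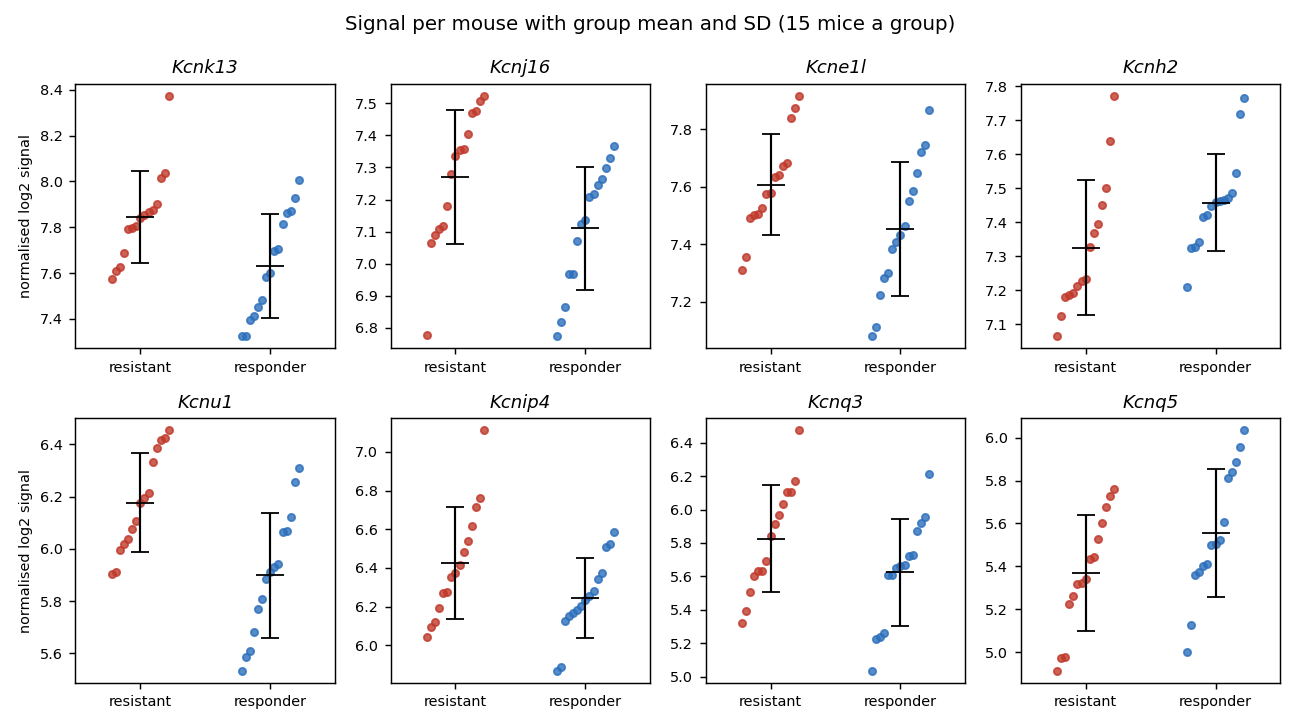
Normalised log2 signal of 8 members in each mouse, with resistant mice in red and responders in blue. Bars give the group mean and SD (n = 15 each). The groups overlap in all 8 panels, with the resistant mean above the responder mean for Kcnk13, Kcnj16, Kcne1l, Kcnu1, Kcnip4 and Kcnq3 and below it for Kcnh2 and Kcnq5.

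For every detected probe of Kcna to Kcnd and of the silent subunits, the 95% interval reached from negative to positive values. Kcna1 and Kcna2 encode the Kv1 subunits of axons, with differences of -0.06 (95% interval -0.43 to 0.31) and 0.02 (-0.11 to 0.16). Kcnc1 and Kcnc4, of the fast-spiking Kv3 family, lay between -0.06 and 0.11 over their 4 probes. Kcnd2, the main Kv4 subunit of pyramidal cell dendrites, read 7.82, 8.54 and 9.54 in resistant and 8.15, 8.80 and 9.59 in responder mice. Its difference of -0.16 had an interval from -0.50 to 0.18. Kcng4, a silent subunit, read 6.36 ± 0.32 in resistant and 6.15 ± 0.37 in responder mice, a difference of 0.20 (95% interval -0.04 to 0.45).

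The 2 M-current subunits lay on opposite sides of 0. Kcnq3 read 5.83 ± 0.32 in resistant and 5.62 ± 0.32 in responder mice, a difference of 0.20 (95% interval -0.03 to 0.43). For Kcnq5 the means were 5.37 ± 0.27 and 5.56 ± 0.30 (SD, n = 15 each), a difference of -0.19 (-0.40 to 0.02). Neither interval excluded 0, and the Kcnq5 probe was detected on 10 resistant and 13 responder arrays. Kcnh1, an EAG channel, lay at -0.20 (95% interval -0.52 to 0.11). Kcnh3, an ELK channel of forebrain neurons, lay at 0.06 (-0.11 to 0.23).

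Among auxiliary subunits, all 5 Kcnab probes had differences above 0, but none exceeded 0.11. Kcnab2, a Kv1 beta subunit, read 12.80 ± 0.16 in resistant and 12.79 ± 0.11 in responder mice, and Kcnab1 lay between 0.03 and 0.06 over 3 probes. Of the KChIPs, which bind Kv4 channels, Kcnip4 had the smallest p. Its values were 6.04, 6.37 and 7.11 in resistant and 5.87, 6.23 and 6.58 in responder mice, and 11 of 15 resistant mice lay above the responder median. Kcnip3 lay at 0.11 (95% interval -0.08 to 0.30), Kcnip1 at -0.10 (-0.28 to 0.08), and the 3 Kcnip2 probes between -0.01 and 0.05.

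The G protein-gated inward rectifiers Kcnj3, Kcnj6 and Kcnj9, which mediate slow inhibition, lay at -0.03, -0.04 and 0.06. None of the 3 intervals excluded 0. Kcnj8, a pore subunit of ATP-sensitive channels of pericytes and smooth muscle, lay at -0.10 (95% interval -0.33 to 0.13). Of the two-pore channels, 6 of 7 lay above 0, with Kcnk6 at 0.15 (-0.01 to 0.32). Kcnk1 and Kcnk2, present in astrocytes and neurons, lay at 0.01 (-0.07 to 0.09) and -0.05 (-0.19 to 0.09).

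All 4 BK channel probes, of 2 genes, lay below 0, but each 95% interval reached above 0. Kcnma1, the pore, read 8.21 ± 0.30 in resistant and 8.32 ± 0.25 in responder mice, a difference of -0.12 (95% interval -0.31 to 0.08). The 3 Kcnmb4 probes lay between -0.04 and -0.02. The SK channel genes Kcnn1 and Kcnn2 lay at 0.08 (-0.03 to 0.19) and -0.01 (-0.23 to 0.21), and the sodium-activated Kcnt1 at 0.10 (-0.17 to 0.38). Hcn2 had means of 10.70 ± 0.14 and 10.67 ± 0.13 and Hcn3 of 6.46 ± 0.16 and 6.51 ± 0.20, resistant first (SD, n = 15 each). The intervals of their differences ran from -0.06 to 0.13 and from -0.19 to 0.09.

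Of 40 genes for proteins that anchor, modify or couple to these channels, 29 were detected. None passed an adjusted p of 0.05 in limma. At an unadjusted p below 0.05, 2 were higher and 1 lower, where the background was 4.25% and 3.3%, and the median difference was 0.02 against 0.01 over all detected probes. Abcc9, the SUR2 receptor of ATP-sensitive channels in vessels, lay at 0.24 (p = 0.0193, limma adjusted p = 0.598). Gnb1, a G protein beta subunit, lay at 0.12 (p = 0.0401), and Vapb, a membrane protein of the endoplasmic reticulum, at -0.12 (p = 0.0211). Those of smallest p in the other groups were Dpp10 for Kv4 (0.05), Adam22 for Kv1 (0.12), Pex5l (TRIP8b) for HCN channels (-0.11) and Ank3 for Kv7 (0.10).

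Members varied widely from mouse to mouse. The SD over the 30 mice had a median of 0.243 over members and 0.202 over all detected probes, and ran from 0.106 (Kcnk1) to 1.95 (Kcne2). Whole hippocampi hold many cell types and can carry tissue from next to the hippocampus. Each detected member was therefore set against the mean of markers for 12 cell types or regions across the mice. Of the 672 relations, 32 had a Benjamini-Hochberg adjusted permutation p below 0.05 for Pearson's r, 19 positive and 13 negative, with unadjusted permutation p from 1e-05 to 0.0023. They involved 19 genes, and 20 of the 32 also passed by Spearman's rho. None involved the astrocyte, microglia or endothelium lists. An r of at least 0.525 in size, the smallest among the 32, was seen in 5.21% of the 672 relations, against 3.35% of 149832 relations of all detected probes other than the markers.

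**Figure D3:**
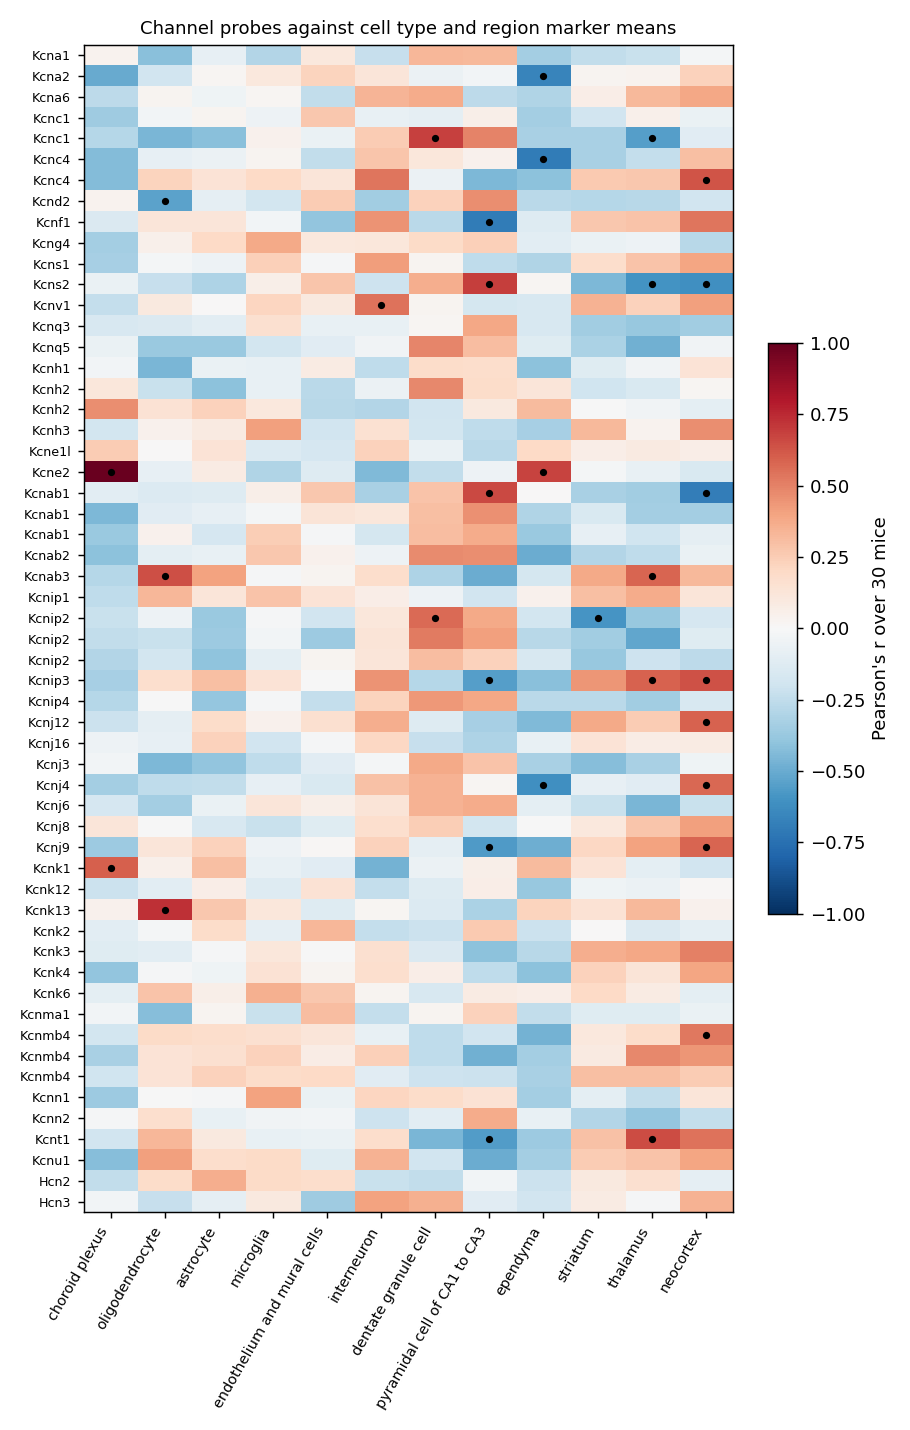
Pearson's r over 30 mice between each of the 56 detected probes (rows, by subfamily) and the mean of the markers of 12 cell types or regions (columns). Black points mark the 32 relations with an adjusted permutation p below 0.05. The column with the most points is neocortex, with 8, and the astrocyte, microglia and endothelium columns hold none.

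Kcne2 stood apart from the other members. It is an auxiliary subunit that is known from the apical membrane of the choroid plexus epithelium, the secretory tissue in the ventricle beside the hippocampus. In 11 mice it read 4.60 to 5.59 and in 19 mice 7.13 to 9.92, with no mouse between. The lower set held 6 resistant and 5 responder mice and the upper set 9 and 10. The group difference was -0.93 (SE 0.64, 95% interval -2.24 to 0.38, limma p = 0.159). Of the 15 resistant mice 1 lay above 9.27, the responder median.

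The choroid plexus markers were lower in the 11 mice with low Kcne2. The widest gap in their mean lay elsewhere, between 7.93 and 8.71. Their mean, over 10 detected markers such as Ttr, Kl and Aqp1, ran from 5.35 to 6.80 in the 11 mice with low Kcne2 and from 7.52 to 10.27 in the others. Within the 19 mice r was 0.957 (rho = 0.939, permutation p = 1e-05 for both, the smallest that 100000 permutations can give, adjusted p over 4 relations = 4e-05). Within the 11 mice r was 0.669 (permutation p = 0.0232, adjusted p = 0.0464) and rho 0.700 (permutation p = 0.02). The Kcne2 probe was detected on 22 arrays in all, and the upper set alone held 19 mice. Most of the 11 low readings were thus not called detected. The r within the 11 mice therefore rests largely on signals near the detection limit, and no conclusion is drawn from it. Leaving out, in each set, the 2 mice whose marker mean was most extreme gave r = 0.933 and 0.575. By group, the marker mean was 7.59 ± 1.39 in resistant and 8.41 ± 1.78 in responder mice, with all 10 markers lower in resistant mice (permutation p of the mean = 0.173). With this mean as a covariate the Kcne2 difference was 0.04 (limma p = 0.737). Kcnk1 was the other member with a positive relation to these markers among the 32 over all mice, which was lost under median scaling (adjusted permutation p = 0.169). Within the 19 mice its r was 0.424 and within the 11 it was -0.288 (rho = 0.420 and -0.191), and neither passed (permutation p = 0.0712 and 0.398).

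**Figure D4:**
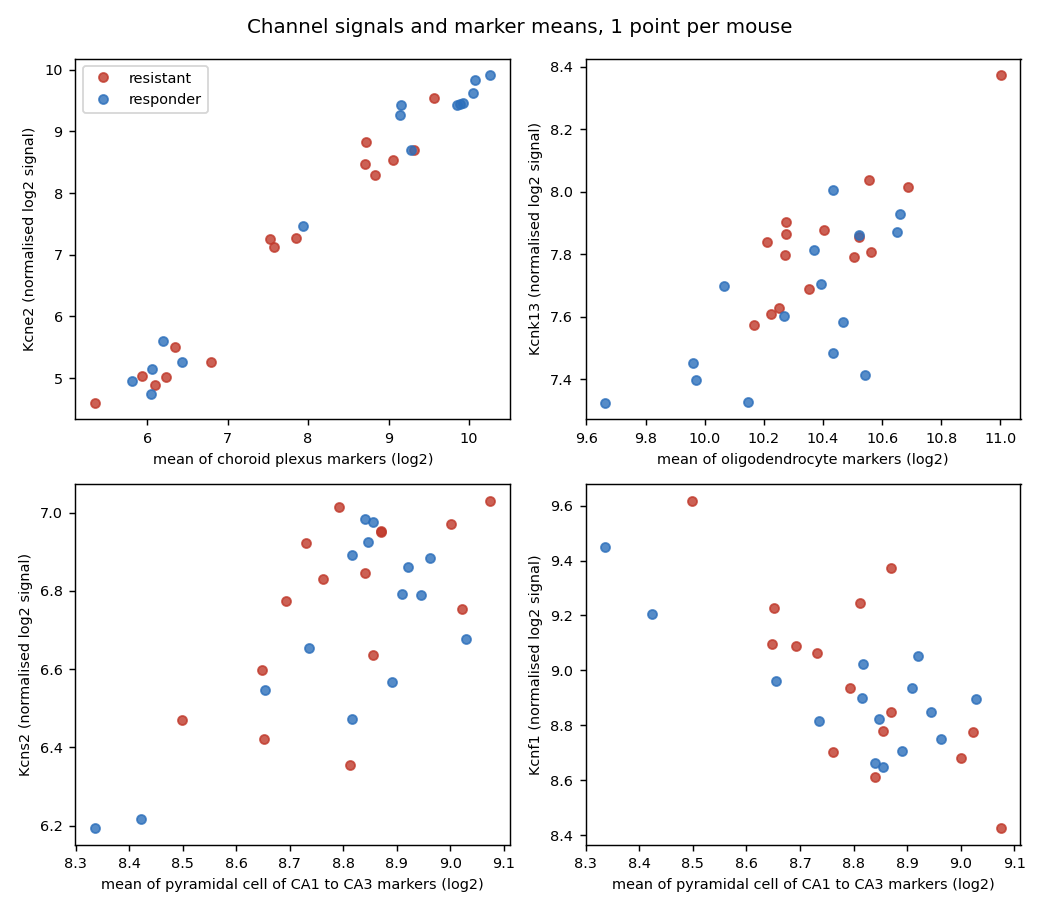
Normalised log2 signal of 4 members against the mean log2 signal of a marker list, 1 point per mouse (resistant red, responder blue). Kcne2 and the choroid plexus markers leave a gap between 5.59 and 7.13 on the Kcne2 axis. Kcnk13 and Kcns2 are higher, and Kcnf1 lower, in mice with higher marker means.

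Kcnk13 followed the oligodendrocyte markers, with r = 0.734 (adjusted permutation p = 0.00269) and rho = 0.664 (adjusted p = 0.0112). Its r was 0.583 once the 2 mice with the most extreme marker means were left out, 0.841 in resistant and 0.653 in responder mice. With the microglia markers Kcnk13 had r = 0.113 and rho = 0.227 (adjusted permutation p = 0.788 and 0.536). Kcnab3, a Kv1 beta subunit, also followed the oligodendrocyte markers (r = 0.646, adjusted permutation p = 0.0096, rho = 0.609, adjusted p = 0.0309, without 2 mice 0.595). It was 0.686 in resistant and 0.594 in responder mice. Kcnab3 rose with thalamus markers too, by r alone (0.585, adjusted permutation p = 0.0186, rho = 0.530, adjusted p = 0.0737), and the oligodendrocyte and thalamus means themselves rose together (r = 0.570, rho = 0.644). Both oligodendrocyte relations were positive within sample numbers 1 to 16 and 17 to 30 (0.759 and 0.706 for Kcnk13, 0.545 and 0.763 for Kcnab3).

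Neuronal lists were followed by different members. Kcnc1 (1 of its 2 probes) rose with dentate granule cell markers, with r = 0.686 (adjusted permutation p = 0.00448) and rho = 0.598 (adjusted p = 0.0319). Without 2 mice r was 0.517, and it was 0.831 in resistant and 0.459 in responder mice. Kcnip2 followed the same markers by r only (0.568, adjusted permutation p = 0.0294, rho = 0.489, adjusted p = 0.107). Its r was 0.744 in resistant and 0.155 in responder mice, and the difference between the groups was not tested. The same Kcnip2 probe fell with striatum markers by both measures (r = -0.588, adjusted permutation p = 0.0186, rho = -0.576, adjusted p = 0.0391). Without background correction that relation had r = -0.520 (adjusted permutation p = 0.057). Kcnv1, a silent subunit, followed interneuron markers (r = 0.547, adjusted permutation p = 0.0423, rho = 0.560, adjusted p = 0.0461).

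Pyramidal cell markers of CA1 to CA3 rose with Kcns2 and Kcnab1 and fell with Kcnf1. For Kcns2, a silent subunit, r was 0.688 (adjusted permutation p = 0.0055, rho = 0.526, adjusted p = 0.0737, without 2 mice 0.482). For a Kcnab1 probe r was 0.664 (adjusted permutation p = 0.0055) and rho 0.574 (adjusted p = 0.0441). Kcnf1, another silent subunit, had r = -0.700 (adjusted permutation p = 0.00269) and rho = -0.608 (adjusted p = 0.0309), with -0.744 in resistant and -0.739 in responder mice. Under median scaling the Kcnf1 value was -0.432 (adjusted permutation p = 0.145). Kcnj9, Kcnt1 and Kcnip3 also fell with these markers by r alone (r = -0.566, -0.560 and -0.551, adjusted permutation p = 0.0398 each), with rho of -0.452, -0.358 and -0.471 (adjusted p = 0.143, 0.278 and 0.125). Kcnf1, Kcnab1 and Kcns2 were related to each other in the same sense: Kcnf1 with Kcnab1 at r = -0.696 and with Kcns2 at -0.615, and Kcnab1 with Kcns2 at 0.653 (adjusted permutation p over 1540 pairs = 0.00385, 0.0269 and 0.0182).

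Markers of neighbouring regions moved with some of the same members. Kcnab1 and Kcns2 fell with neocortex markers (r = -0.690 and -0.611, adjusted permutation p = 0.00616 and 0.00986, rho = -0.662 and -0.589). Kcnip3, or DREAM, rose with them (r = 0.633, adjusted permutation p = 0.0055, rho = 0.655), as did 1 of the 2 Kcnc4 probes (r = 0.630, rho = 0.608, adjusted permutation p of r = 0.0055). Kcnt1 rose with thalamus markers (r = 0.652, adjusted permutation p = 0.0093, rho = 0.599, without 2 mice 0.486) and Kcns2 fell with them (-0.599, adjusted permutation p = 0.0186, rho = -0.515). The remaining relations with neocortex markers were positive, for Kcnj12 (r = 0.590, rho = 0.561), Kcnj4 (0.577, rho = 0.462), Kcnj9 (0.582, rho = 0.349) and a Kcnmb4 probe (0.525, rho = 0.455), with adjusted permutation p of r from 0.0186 to 0.0425. Of these only Kcnj12 passed by rho. With thalamus markers, Kcnip3 rose (r = 0.593, rho = 0.478) and Kcnc1 fell (r = -0.548, rho = -0.685), with adjusted permutation p of r of 0.0186 and 0.0398. In 1 responder mouse (sample number 14) the neocortex mean was 8.00, against 7.58 in the next highest mouse. That mouse also had the highest Kcnj9 (7.12), Kcnip3 (10.11), Kcnt1 (6.45) and Kcnab3 (8.42) signals. Its thalamus mean (8.59) was the highest of all mice and its pyramidal cell mean (8.34) the lowest. The neocortex relations are not given without it here. Neither are those of Kcnab3 and Kcnip3 with thalamus markers, or of Kcnj9, Kcnt1 and Kcnip3 with pyramidal cell markers. The neocortex list had 4 detected markers and the thalamus list 5. Their part in the values of these members was not tested.

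Ependymal markers had negative relations with Kcnc4 (its other probe, r = -0.703, rho = -0.699, adjusted permutation p of r = 0.00269), Kcna2 (r = -0.662, rho = -0.670, adjusted permutation p = 0.0055) and Kcnj4 (r = -0.616, rho = -0.577, adjusted permutation p = 0.0118). Kcnj4 is the Kir2.3 inward rectifier of neurons. Kcne2, whose signal divided the mice, was the other relation in this list. The ependymal and choroid plexus means themselves rose together (r = 0.732, rho = 0.774, adjusted permutation p over 66 list pairs = 0.00066).

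Apart from marker lists, 4 members varied together. Kcna1, Kcnd2, Kcnh1 and Kcnma1 had r from 0.693 to 0.866 in their 6 pairs (adjusted permutation p over 1540 pairs = 0.0022 in each). The highest value joined Kcna1 and Kcnd2 (rho = 0.864, without 2 mice 0.827), and it was 0.882 in resistant and 0.858 in responder mice. The lowest joined Kcna1 and Kcnma1 (rho = 0.715), with 0.678 and 0.729 in the groups. Within sample numbers 1 to 16 the Kcna1 and Kcnd2 value was 0.860, and within 17 to 30 it was 0.878. Of all 1540 pairs of member probes, 26 passed, 23 positive and 3 negative. The positive ones include a pair of probes of the same gene, Kcnip2. The share over pairs of all detected probes is not given here, so the 26 cannot be set against a background.

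**Figure D5:**
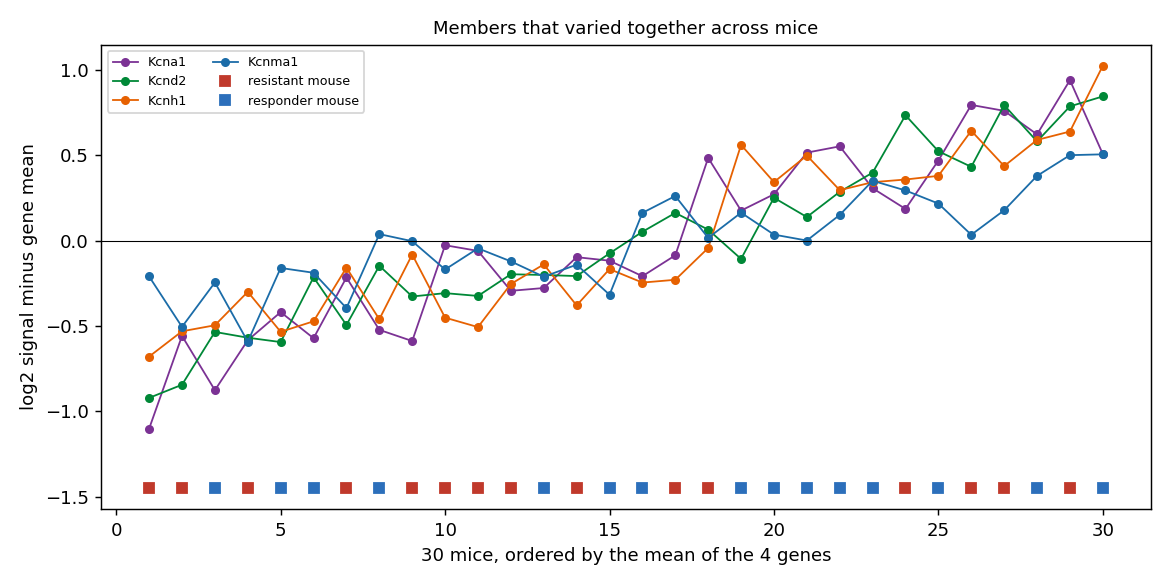
Log2 signal of Kcna1, Kcnd2, Kcnh1 and Kcnma1 minus each gene's mean, in the 30 mice ordered by the mean of the 4 genes. Squares give each mouse's group. The 4 lines rise along an order that their own mean set. Resistant (red) and responder (blue) mice are spread over the whole order.

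The mean of the 4 genes ran from 7.07 to 8.52 over the mice, a 2.73-fold range. Resistant mice had 7.73 ± 0.44 and responders 7.87 ± 0.38 (SD, n = 15 each), with ranges of 7.07 to 8.52 and 7.26 to 8.52. The groups thus covered nearly the same span. Its r was 0.02 with the array median before normalisation (rho = 0.04, permutation p = 0.907 for r). With the number of probes detected r was -0.01 (rho = 0.09, permutation p = 0.949), and with the sample number -0.22 (rho = -0.28, permutation p = 0.238). Kcnd2 fell with Kcnk13 (r = -0.617, rho = -0.610, adjusted permutation p = 0.0245). It also fell with the oligodendrocyte markers, by r only (-0.533, adjusted permutation p = 0.0483, rho = -0.525, adjusted p = 0.0737).

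The pattern was not limited to channels. Of the 12588 detected probes, 155 (1.23%) had r of at least 0.8 with the mean of the 4 genes. The non-members most like it were Zeb2, a transcription factor (r = 0.949), Pja2, a ubiquitin ligase (0.947), Gatad2b (0.935), Fam168a (0.933), Synm (0.931) and Map1b, a microtubule protein (0.930). Scn1a, the sodium channel of Dravet syndrome, had r = 0.841 and was picked after its value was seen. These values only rank the probes over the 30 mice.

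Because these genes moved together, their promoters are shown where the RefSeq table (GRCm38.p6) had them, as the 250 bases before the transcript start. It held Kcnd2 (chr6:21215096-21215345, plus strand), Kcnh1 (chr1:192190527-192190776, plus strand) and Kcnma1 (chr14:24004206-24004455, minus strand). Each is written 5′ to 3′ on the gene's strand, with every CG dinucleotide, which reads the same on both strands, in capitals.
Kcnd2: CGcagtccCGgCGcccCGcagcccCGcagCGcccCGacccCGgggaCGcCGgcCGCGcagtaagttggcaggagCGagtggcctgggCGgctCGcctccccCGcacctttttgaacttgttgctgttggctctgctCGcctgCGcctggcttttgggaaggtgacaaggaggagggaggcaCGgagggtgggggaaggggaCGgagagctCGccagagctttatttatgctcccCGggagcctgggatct
Kcnh1: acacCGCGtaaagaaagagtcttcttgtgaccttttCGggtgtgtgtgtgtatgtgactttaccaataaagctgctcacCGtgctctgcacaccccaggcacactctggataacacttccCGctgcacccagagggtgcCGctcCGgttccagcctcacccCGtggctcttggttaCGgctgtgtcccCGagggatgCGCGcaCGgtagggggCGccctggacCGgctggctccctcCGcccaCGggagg
Kcnma1: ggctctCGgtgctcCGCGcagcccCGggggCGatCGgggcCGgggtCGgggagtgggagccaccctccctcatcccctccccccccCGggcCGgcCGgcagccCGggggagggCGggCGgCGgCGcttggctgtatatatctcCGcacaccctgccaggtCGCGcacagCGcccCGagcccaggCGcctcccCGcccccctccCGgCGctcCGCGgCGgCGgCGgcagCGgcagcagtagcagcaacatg
CG occurs 22 times before Kcnd2, 17 times before Kcnh1 and 31 times before Kcnma1. The median over 32851 promoters of the same length was 6, and 92.1% of them held at least 1 CG. The Kcnma1 window had as many or more CG than 95.4% of them, Kcnd2 than 86.7% and Kcnh1 than 78.3%. This describes base composition and says nothing of the factors that bind there.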

How the data were processed

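Hippocampal RNA of 15 resistant and 15 responder mice was hybridised to 1 Illumina array each. The deposited unprocessed log2 signals and detection p-values were used. The authors' processed log2 values equalled a quantile normalisation of those signals within 6e-09, and the submitters' processing notes name lumi. Here signals were background-corrected from the detection p-values and quantile-normalised (neqc, offset 16, limma 3.58.1, R 4.3.3). Probes with detection p-value below 0.05 on at least 15 of 30 arrays (12588) were fitted with lmFit and eBayes with an intensity trend, and p-values adjusted by Benjamini-Hochberg over all of them. Gene symbols came from the platform annotation (23978 of 25697 probes had 1 symbol, 1719 none), and all 123 member probes matched RefSeq by Entrez ID. Correlations used 100000 two-sided permutations. Both procedures were tested on simulated data. The number of arrays limits the precision. Deviations of same-numbered resistant and responder arrays had r from -0.316 to 0.280 (median 0.114, against -0.018 for other pairs), and 8 of 15 pairs exceeded 0.1. As not every pair did, the numbers were not treated as pairs in the main fit. This rule is no test of pairing, and a fit with the replicate number as a block was run as an alternative. Alternatives changed the background correction, normalisation, filter, weights, prior, blocks and covariates. The members and gene lists were chosen with earlier results of these data known. Members were named by p, by SD, by marker relation and by a list of well-known channels. No probe sequence or protein sequence was used here.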

Additional observations from a re-analysis of the deposited data

How the results depend on the processing

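No member passed an adjusted p of 0.05 in limma under any of the 13 alternatives, where the smallest value was 0.263 (Kcnu1, median scaling). The number of all probes that passed, 1 as reported, was 0 with no filter, with the replicate number as a block, within sample numbers 1 to 16 and with the choroid plexus or oligodendrocyte covariate, 2 with the sample number ranges as a block, and 3 within numbers 17 to 30. Pairing by replicate number changed no member's adjusted call. The count of members higher at an unadjusted p below 0.05 stayed between 3 and 6. The 1 member lower, a Kcnh2 probe, became 0 without background correction, with median scaling, in the authors' values, with no filter, within numbers 17 to 30 and with the choroid plexus covariate. With the replicate block (p = 0.0746) and within numbers 1 to 16 (p = 0.0514) Kcnh2 was lost too, and Kcnq5 was the 1 member lower (limma p = 0.0412 and 0.0479). Median scaling gave 80.1% of all calls at an unadjusted p below 0.05 as higher, against 56.3%. The 32 marker relations became 16 with no filter and 19 with the stricter filter, which tested 38 members, and 11 of 75 re-estimates of the named relations lost their call without turning.

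Of 547 re-estimated differences 35 changed sign, all from values that had not passed, and the cause was not tested. With array weights Kcnc1 lay at 0.0034 and Kcns1 at 0.044. With median scaling Kcnmb4 lay at 0.0087 and Kcnc1 at 0.034. With the choroid plexus covariate Kcnip2 lay at -0.0070, Kcnab2 at -0.013, Kcnv1 at -0.018, Kcna2 at -0.023 and Kcne2 at 0.039. With the oligodendrocyte covariate Kcnj3 lay at 0.00073, Kcnj6 at 0.0017, Kcnc1 at 0.038 and Kcna1 at 0.041. Within numbers 1 to 16 Kcnj9 lay at -0.011, Kcnk1 at -0.022, Hcn2 at -0.025, Kcnf1 at -0.038, Kcnt1 at -0.039, Kcnab3 at -0.063, Hcn3 at 0.0030, Kcnip1 at 0.035, Kcnc1 at 0.059, Kcnj6 at 0.064 and Kcns1 at 0.22. Within numbers 17 to 30 Kcnc4 lay at -0.016, Kcng4 at -0.026, Kcnab2 at -0.030, Kcnn1 at -0.055, Kcnv1 at -0.068, Kcnip2 at -0.20, Kcnmb4 at 0.0012, the other Kcnc1 probe at 0.016, Kcnk2 at 0.029, Kcnj3 at 0.039 and Kcna1 at 0.13.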

Other observations

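The marker lists had relations of their own across the 30 mice. Of 66 pairs, the pyramidal cell and thalamus means moved in opposite directions (r = -0.726, rho = -0.693, adjusted permutation p of r = 0.00066, without 2 mice -0.607), with -0.825 within sample numbers 1 to 16 and -0.485 within 17 to 30. Oligodendrocyte and thalamus means rose together (r = 0.570, rho = 0.644, adjusted permutation p of r = 0.016), as did dentate granule and pyramidal cell means (r = 0.528, rho = 0.483, adjusted permutation p of r = 0.0374). Pyramidal cell and neocortex means moved in opposite directions by r (-0.624, adjusted permutation p = 0.0077, without 2 mice -0.369) but not by rho (-0.461, adjusted p = 0.0592).

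Of the 56 detected members, Kcnj8 alone moved with the sample number in the labels (r = -0.619, adjusted permutation p over 56 relations = 0.0112, rho = -0.636, adjusted p = 0.0129, without the 2 end samples -0.615). The value was -0.825 in resistant and -0.452 in responder mice. What the number stands for is not given in the sources used here.

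Probes of one gene differed in how closely they moved together across mice. For 1 pair of Kcnip2 probes r was 0.638 (rho = 0.661, adjusted permutation p of r = 0.022), while for the Kcnh2 pair it was -0.00 (adjusted permutation p = 0.998).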
